A study of Homo sapiens with 12 samples.

Results

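The scavenger and lipoprotein receptor genes COLEC12, OLR1, SCARA3, SCARB1, SCARB2, CD36 and LRP1, were followed in AC16 cells given pulses of interferon alpha-2a, a type I interferon. They are 7 of the 60649 genes in the deposited tables and were picked by symbol. COLEC12 was picked because it is lower after each pulse, and OLR1 because it is lower in the groups harvested late, so those differences are described here without a test. The other 5 genes were listed as receptors of the same kind. AC16 is an established human line derived from ventricular heart cells. Gene expression was measured by RNA sequencing of polyadenylated RNA in 4 groups of 3 libraries, which the study's text calls independent biological replicates. Vehicle cells received phosphate-buffered saline and are labelled 24 h. Acute cells were harvested after a 24 h pulse of interferon at 1000 U/mL. Recovery cells had the same pulse, then 5 days without interferon, and were harvested on day 6. Repeat cells were pulsed for 24 h, held for 4 days and then pulsed again for 24 h, and their labels place the harvest on day 7, although these steps add up to 6 days. The protocol states that vehicle was applied over matching periods, yet no vehicle library is labelled with a late harvest, so in comparisons of recovery or repeat with vehicle or acute cells the treatment cannot be told apart from time in culture. By their labels, repeat and recovery cells also differ in harvest day, 7 against 6. The submitters name DMEM/F-12 as the medium in one text and an RPMI medium in another, and which cells had which is not given.

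Scavenger receptors are membrane proteins that bind modified lipoproteins, microbes and cell debris and carry them into the cell. COLEC12 (collectin placenta 1) joins a collagen-like stalk to a sugar-binding lectin head, and is known from endothelial and stromal cells. OLR1 (also called LOX-1) is a C-type lectin that binds oxidised low-density lipoprotein and is best studied in endothelium. SCARA3 is a class A relative known to be induced by oxidative stress. SCARB1 takes up cholesterol from high-density lipoprotein at the cell surface, CD36 takes up long-chain fatty acids and oxidised lipoprotein, and SCARB2 resides in the lysosome membrane and is also known as an entry receptor for some enteroviruses. LRP1 is a large endocytic receptor for many ligands, among them lipoprotein remnants and protease complexes.

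Promoter sequence is shown for COLEC12 and SCARB2, which moved in opposite directions after a pulse, beside that of ISG15, a classical interferon-stimulated gene. Each stretch holds 150 bases and ends 55 bases before the gene's start in RefSeq (GRCh38.p14), 5′ to 3′ on the gene's own strand. Capitals mark GC boxes (GGGCGG, either strand) in COLEC12 and SCARB2, and the core of the interferon-stimulated response element (GAAA, any 2 bases, GAAA, either strand) in ISG15.
COLEC12, chr18:500756-500905, minus strand: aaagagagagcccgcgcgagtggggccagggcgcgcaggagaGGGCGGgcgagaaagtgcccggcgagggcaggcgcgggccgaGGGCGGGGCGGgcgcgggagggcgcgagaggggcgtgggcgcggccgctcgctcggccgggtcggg
SCARB2, chr4:76213879-76214028, minus strand: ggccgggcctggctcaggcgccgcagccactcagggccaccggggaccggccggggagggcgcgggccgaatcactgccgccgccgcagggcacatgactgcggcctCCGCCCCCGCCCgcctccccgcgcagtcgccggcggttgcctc
ISG15, chr1:1013293-1013442, plus strand: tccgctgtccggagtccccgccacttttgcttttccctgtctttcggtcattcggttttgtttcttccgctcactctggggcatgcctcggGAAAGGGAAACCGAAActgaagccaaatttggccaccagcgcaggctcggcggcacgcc
The COLEC12 stretch holds 3 GC boxes, the last 2 overlapping, and 82.0% of its bases are G or C. The SCARB2 stretch holds 2 GC boxes on the opposite strand and is 81.3% G or C, against a median of 58% over the same window of 35116 RefSeq promoters. Neither holds the interferon element core, of which ISG15 has 2 overlapping copies. In the same window a GC box occurs in 30.9% of all promoters and the interferon element core in 1.77%. LRP1 (1 start) and CD36 (6 starts) also lack the core letters, but so does OAS1 (1 start), a classical interferon-stimulated gene, and MX1, another, has them at 1 of 3 starts. A match here is a description of letters, not a binding site.

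The libraries held 39.9 to 62.3 M estimated counts. In CPM (counts per 1 M, scaled between libraries by TMM) MX1, an antiviral GTPase, was at 3.55 in vehicle, 772 in acute, 7.68 in recovery and 802 in repeat cells, and all 5 interferon check genes rose in both pulses. Genes of the mitochondrial genome took 5.4 to 5.8% of counts in vehicle and 5.6 to 5.7% in recovery libraries, but 4.5 to 4.8% in acute and 4.4 to 4.6% in repeat libraries. The cells carried little of the cardiomyocyte programme. Of 14 cardiomyocyte markers 3 passed the count filter, MYL7 was at 0 in every library and TNNT2 at 14 counts or fewer. The 3 that passed were GATA4, ACTN2 and NPPB. Their group means ran from 12.9 to 16.6 CPM for GATA4 and from 0.158 to 0.553 for NPPB. ACTN2 went from 1.48 CPM in vehicle to 3.58 in repeat cells. All 10 fibroblast markers passed, and their summed level was 2728 to 2815 TPM (transcripts per 1 M) in vehicle, 2101 to 2231 in acute, 2335 to 2407 in recovery and 1846 to 1948 in repeat libraries. Whether this drop bears on the receptors was not tested. Of 8 endothelial markers 5 passed, with a sum of 2.06 to 2.90 TPM over all libraries and at most 2 counts of CDH5. Of 10 macrophage markers 4 passed, with a sum of 2.39 to 5.19 TPM and C1QA at 0 throughout.

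In TPM, which divides by gene length and so allows genes to be compared, LRP1 and SCARB2 were the most abundant of the 7 receptors and CD36 the least. In vehicle cells the order of mean levels was LRP1 (71.8 TPM), SCARB2 (43.4), SCARB1 (37.1), SCARA3 (17.7), OLR1 (10.2), COLEC12 (1.10) and CD36 (0.037). The ranges of neighbours in this order did not overlap. After the pulse SCARB2, at 73.4 ± 0.794 TPM, stood level with LRP1 at 70.7 ± 4.66 (SD, n = 3 each), and their ranges overlapped. In recovery cells the vehicle order was back, with LRP1 at 67.9 and SCARB2 at 45.3 TPM. In repeat cells SCARB2 (74.4 TPM) was above LRP1 (61.4) in every library. The last 5 places were the same in all 4 groups.

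**Figure D1:**
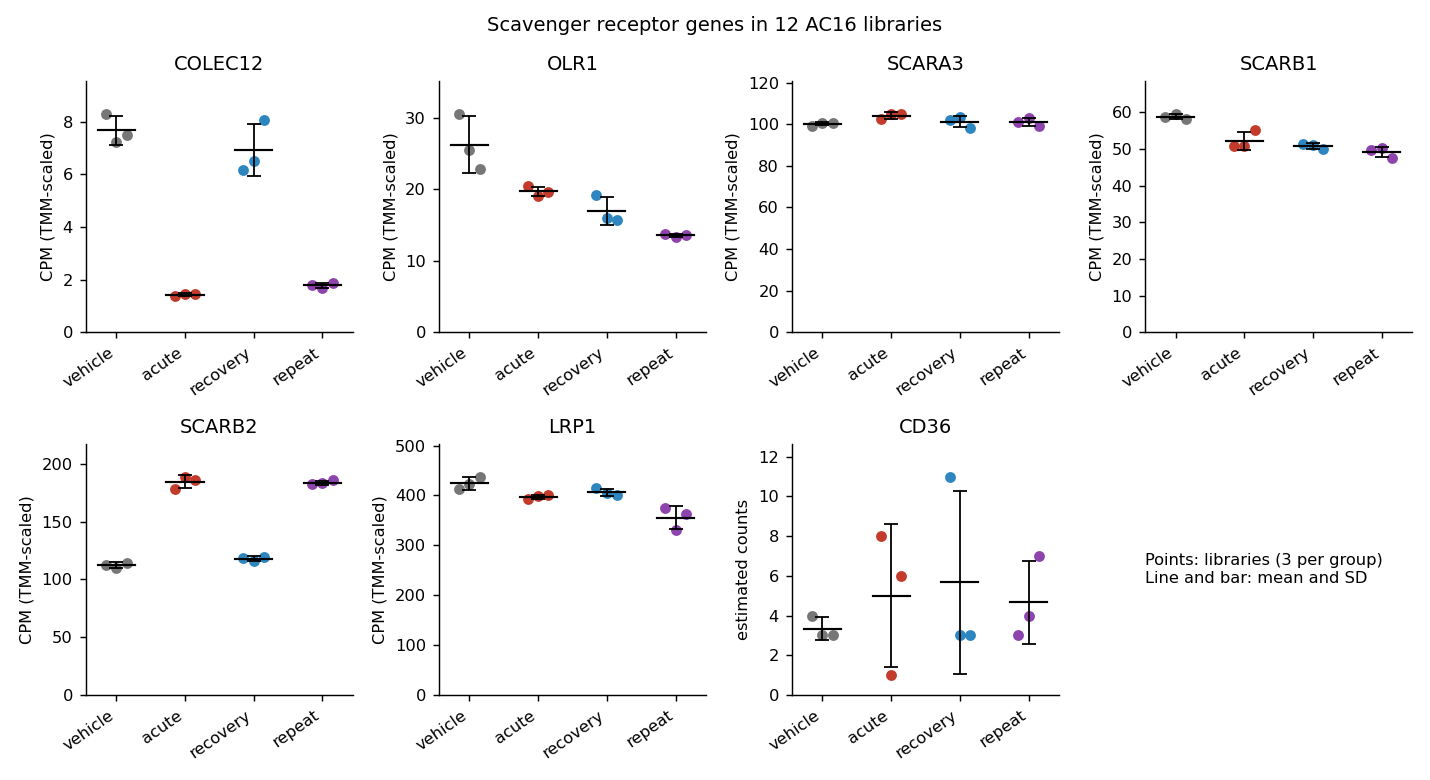
Level of each of the 7 receptor genes in every library, in TMM-scaled CPM (estimated counts for CD36) on linear axes starting at 0; points are the 3 libraries of a group, the horizontal line is their mean and the vertical bar 1 SD on each side. COLEC12 lies between 1.37 and 1.88 in the acute and repeat libraries and between 6.19 and 8.30 in the others, while SCARB2 has the opposite layout.

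COLEC12 was the member with the largest change. The gene (ENSG00000158270.12) lies on the minus strand of chromosome 18 at 316737 to 500722 (GRCh38, GENCODE release 44), and its canonical transcript has 10 exons. Its level was 8.30, 7.24 and 7.49 CPM in the vehicle libraries, 1.37, 1.47 and 1.44 in acute, 6.19, 6.52 and 8.06 in recovery, and 1.79, 1.70 and 1.88 in repeat libraries. The 6 libraries harvested straight after a pulse were low, from 58 to 105 counts each, and the other 6 held 276 to 474 counts. The acute mean was 18.6% of the vehicle mean and the repeat mean 23.3%, while recovery cells stood at 90.1%. The fitted log2 fold changes were -2.43 ± 0.123 for acute minus vehicle, 2.28 ± 0.124 for recovery minus acute and -1.96 ± 0.114 for repeat minus recovery (standard errors of the fit). These are the differences that chose the gene and carry no test. On log2 TPM with a pseudocount of 0.5 they shrank to -1.20, 1.07 and -0.97, since the pseudocount is large beside levels of 0.198 to 1.10 TPM.

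The choice of COLEC12 did not rest on whether it came back fully or on whether it responded alike to both pulses. The comparisons for these questions share their libraries with the differences that chose the gene, so their tests are not independent of that choice. Recovery minus vehicle was -0.15 ± 0.098, with a 95% interval of -0.35 to 0.05 and overlapping libraries (adjusted p = 0.48, edgeR quasi-likelihood test with Benjamini-Hochberg adjustment over 18119 genes, as in every adjusted p below unless another tool is named). Its size rested on single libraries, at -0.276 without recovery replicate 3, -0.076 without recovery replicate 1 and -0.088 without vehicle replicate 1, and it passed in none of these fits. Repeat cells kept slightly more COLEC12 than acute cells. The 3 repeat libraries all lay above the 3 acute ones, at a log2 difference of 0.32 ± 0.136 (interval 0.04 to 0.60), but this did not pass (adjusted p = 0.206, 0.162 to 0.803 over the alternatives). The interaction, which subtracts the response to the first pulse (acute minus vehicle) from that to the later one (repeat minus recovery), was 0.47 ± 0.168 (adjusted p = 0.271; unadjusted p = 0.00874). A smaller response to the later pulse was thus not shown over all genes.

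OLR1 had another layout, with a step down in each successive group. The gene (ENSG00000173391.9) lies on the minus strand of chromosome 12 at 10158301 to 10172138, with 6 exons in the canonical transcript. Its level was 30.5, 25.4 and 22.8 CPM in vehicle, 20.4, 19.1 and 19.6 in acute, 19.3, 16.0 and 15.6 in recovery, and 13.8, 13.4 and 13.5 in repeat libraries. In CPM each library of the repeat group was below every library of the other groups, and the repeat mean was 51.6% of the vehicle mean. The vehicle libraries spread most, and the recovery and acute libraries overlapped. The differences that chose the gene were -0.64 ± 0.111 for recovery minus vehicle, -0.96 ± 0.112 for repeat minus vehicle, -0.22 ± 0.116 for recovery minus acute and -0.54 ± 0.117 for repeat minus acute on the log2 scale, and carry no test.

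Acute minus vehicle shares the vehicle libraries with the differences that chose OLR1. Repeat minus recovery and the interaction share libraries with those differences too, so none of these tests is independent of that choice. Acute cells had less OLR1 than vehicle cells, by -0.42 ± 0.109 on the log2 scale (adjusted p = 0.0115). The call was lost on log2 TPM (-0.28, limma adjusted p = 0.289) and with an offset for the gene length implied by the 2 deposited tables (-0.34, adjusted p = 0.205), and over all alternatives the adjusted p ran from 7.56e-06 to 0.289. In TPM the vehicle libraries were at 12.1, 10.5 and 7.97 and the acute ones at 8.58, 7.98 and 7.95, so the groups overlapped. Without vehicle replicate 1, the highest, the fold change was -0.29 (adjusted p = 0.00278). Repeat and recovery libraries did not overlap in CPM, but in TPM repeat replicate 3 was above recovery replicates 2 and 3. Repeat minus recovery was -0.32 ± 0.119 (interval -0.59 to -0.05), and the test was missed (adjusted p = 0.0576). It passed in some alternatives, with DESeq2 at an adjusted p of 0.00113, and without vehicle replicate 1 at 0.000669 or vehicle replicate 3 at 0.00931, within a range of 0.000501 to 0.333 over all alternatives. The interaction was 0.10 ± 0.161 (interval -0.27 to 0.46, adjusted p = 0.897).

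TMEM52B, a membrane protein gene on the opposite strand, overlaps the start of OLR1 (chromosome 12, 10170542 to 10191804). Whether the counting used the strand of the reads is not given in the sources used here. TMEM52B had 36 to 106 counts per library, against 657 to 1744 for OLR1. It had a mean of 1.79 CPM in vehicle, 1.47 in acute, 1.01 in recovery and 0.973 in repeat cells. Recovery minus vehicle was -0.82 ± 0.181 for it (adjusted p = 0.00379; 0.81 with the gene length offset) and acute minus vehicle -0.27 ± 0.174 (adjusted p = 0.222). The part of reads shared between the genes in these values was not tested.

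SCARB2 rose in both pulses and fell back close to its vehicle level between them. The gene (ENSG00000138760.11; chromosome 4, 76158737 to 76234536, minus strand, 12 exons) was at 113, 110 and 115 CPM in vehicle, 179, 189 and 186 in acute, 118, 116 and 120 in recovery, and 182, 183 and 186 in repeat libraries. The pulsed libraries lay above all others with a wide gap. The rise was 1.64-fold in acute cells (log2 0.71 ± 0.025, adjusted p = 2.59e-19), and from recovery to repeat it was 1.56-fold (0.64 ± 0.025, adjusted p = 3.18e-18). Recovery was lower than acute by -0.65 ± 0.025 (adjusted p = 3.22e-18), and repeat cells were higher than vehicle cells by 0.71 ± 0.025 (adjusted p = 2.5e-19). Recovery minus vehicle was 0.07 ± 0.026 (interval 0.02 to 0.12, adjusted p = 0.135; unadjusted p = 0.0133). The recovery libraries all lay above the vehicle ones, so a full return was not shown. Repeat and acute cells differed by -0.01 ± 0.024, with an interval of -0.05 to 0.04 (adjusted p = 0.95). The interaction was -0.07 ± 0.035 (adjusted p = 0.466).

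SCARB1, its class B relative at the cell surface, was lower in all 3 treated groups. The gene (ENSG00000073060.17; chromosome 12, 124776856 to 124882668, minus strand, 13 exons) was at 58.8, 59.6 and 58.2 CPM in vehicle, 50.8, 50.9 and 55.1 in acute, 51.5, 51.1 and 50.0 in recovery, and 49.7, 50.2 and 47.5 in repeat libraries. In CPM no treated library reached the vehicle range. In TPM acute replicate 3 (35.9) was above vehicle replicate 1 (35.6), so these groups overlapped. The log2 fold change from vehicle was -0.17 ± 0.033 in acute (adjusted p = 8.86e-05), -0.21 ± 0.033 in recovery (adjusted p = 8.74e-05) and -0.26 ± 0.033 in repeat cells (adjusted p = 1.57e-07). The acute and recovery calls were lost on log2 TPM (limma adjusted p = 0.077 and 0.111) and under the length offset (0.0539 and 0.12), while the repeat call held. Over all alternatives the adjusted p ran from 2.79e-06 to 0.077 in acute and from 9.54e-08 to 0.12 in recovery cells. Recovery minus acute was -0.04 ± 0.034 (interval -0.11 to 0.03, adjusted p = 0.4), and repeat minus recovery -0.05 ± 0.033 (interval -0.12 to 0.02, adjusted p = 0.274). SCARB1 thus did not show the move back towards vehicle in recovery cells seen for SCARB2. The difference between the genes was not tested. CD36, the third class B member (ENSG00000135218.19; chromosome 7, 80369575 to 80679277, plus strand), had 1 to 11 counts per library and did not pass the filter. Its counts were 4, 3 and 3 in vehicle, 8, 1 and 6 in acute, 11, 3 and 3 in recovery, and 3, 4 and 7 in repeat libraries, too few for a difference to be detectable.

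SCARA3 stayed within 98.2 to 105 CPM in all 12 libraries. The gene (ENSG00000168077.14; chromosome 8, 27633868 to 27676776, plus strand, 6 exons) was at 99.3, 101 and 100 CPM in vehicle, 102, 105 and 105 in acute, 102, 104 and 98.2 in recovery, and 101, 103 and 99.3 in repeat libraries. Every comparison missed the test. The acute difference was 0.06 ± 0.025 (interval 0.00 to 0.11, adjusted p = 0.081), and the intervals of the 5 other pairwise log2 differences lay between -0.09 and 0.07. COLEC12, the other class A receptor here, differed by far more in the same libraries.

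LRP1 was lowest in repeat cells. The gene (ENSG00000123384.14; chromosome 12, 57128483 to 57213361, plus strand, 89 exons) was at 413, 423 and 438 CPM in vehicle, 392, 399 and 400 in acute, 414, 404 and 401 in recovery, and 375, 330 and 362 in repeat libraries. In CPM all 3 repeat libraries were below the other 9. In TPM repeat replicate 1 was above acute replicate 2 and recovery replicates 2 and 3, so repeat cells overlapped with both groups. Repeat minus vehicle was -0.26 ± 0.039 (adjusted p = 0.000142), and repeat minus recovery -0.19 ± 0.039 (adjusted p = 0.00151; 0.208 on log2 TPM, 0.13 under the length offset; 1.11e-12 to 0.208 over all alternatives). Repeat minus acute was -0.16 ± 0.039 (adjusted p = 0.0435), a call that was lost in both of those fits and without any 1 of 7 libraries (adjusted p up to 0.143), with a range of 5.45e-07 to 0.397 over all alternatives. Acute minus vehicle was -0.10 ± 0.039 and did not pass (adjusted p = 0.0662), and recovery minus vehicle was -0.06 ± 0.039 (adjusted p = 0.476). STAT6, which overlaps the start of LRP1 on the opposite strand, was at 114 CPM in vehicle, 120 in acute, 109 in recovery and 119 in repeat cells, so it did not share the low repeat level.

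**Figure D2:**
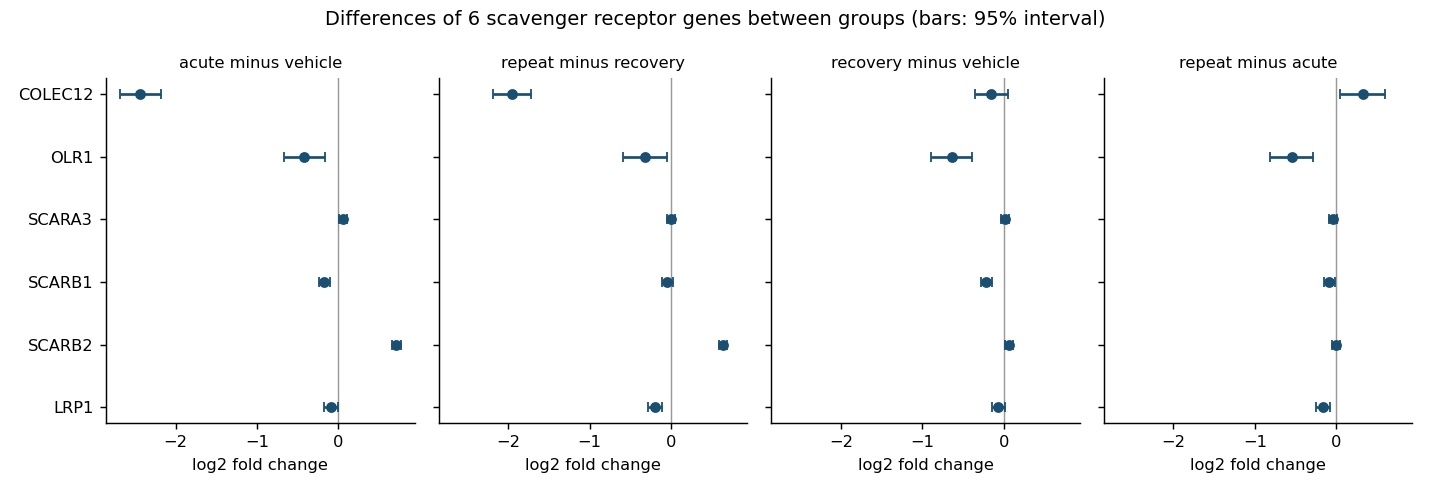
Log2 fold change of the 6 receptor genes that passed the count filter, with 95% intervals of the fit, for acute minus vehicle, repeat minus recovery, recovery minus vehicle and repeat minus acute. COLEC12 stands at -2.43 after the first pulse and -1.96 after the later one, SCARB2 at 0.71 and 0.64, and SCARA3 stays near 0.

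Counted over the 6 tested receptors, 1 was higher and 3 were lower in acute than in vehicle cells, where 43.8% of all 18119 genes passed in either direction (22.3% higher, 21.5% lower). The corresponding counts were 0 higher and 2 lower for recovery minus vehicle (5.94% of all genes, 3.03% higher and 2.91% lower; for the 0, edgeR gave 1 higher at an unadjusted p under 0.05, and DESeq2 and the TPM fit 0), and 1 higher and 4 lower for repeat minus vehicle (46.3%, of which 23.4% higher and 22.9% lower). Recovery minus acute had 1 higher and 1 lower (41.1%, 20.4% higher and 20.7% lower), and repeat minus recovery 1 higher and 2 lower (41.6%, 21.1% higher and 20.5% lower). Repeat minus acute had 2 lower (4.2%, 1.77% higher and 2.43% lower). Several of these hold COLEC12 or OLR1 in a contrast that chose them, so the counts describe the set and nothing is read from them. In the interaction edgeR called 0 of the 6, against 0.651% of all genes (0.221% higher and 0.43% lower). At an unadjusted p under 0.05 there were 3 (COLEC12, SCARB1 and SCARB2), and DESeq2 and the TPM fit also called 0. The median log2 fold change of the 6 was -0.14 in acute and -0.26 in repeat against vehicle, where the median of all genes was 0.00. These medians hold COLEC12 and OLR1, which were chosen for low values, so nothing is read from them either. SCARA3, SCARB1, SCARB2 and LRP1 were at 0.056, -0.173, 0.713 and -0.096 in acute against vehicle. In repeat against vehicle they were at 0.015, -0.259, 0.708 and -0.256.

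Many other scavenger receptors are known from macrophages or liver endothelium. Of 16 listed, 9 passed the filter, and MARCO and SCARA5 were at 0 in every library. Of the 9, 5 rose in acute cells and 4 rose again from recovery to repeat, against 22.3% and 21.1% of all genes. Of these, CD163L1 turned sign in repeat minus recovery, from 0.42 on counts to -0.26 both in limma's fit of the TPM and with the length offset, neither of which called it. CD68, a lysosomal glycoprotein, went from 93.6 ± 0.401 to 230 ± 7.61 CPM (SD, n = 3 each), which is 1.30 ± 0.030 on the log2 scale (adjusted p = 6.19e-21). CXCL16, a membrane-bound chemokine that also binds oxidised lipoprotein, rose by 1.51 ± 0.198 from 0.661 to 1.88 CPM. CD44, the hyaluronan receptor, rose by 0.62 ± 0.026, and CD163L1 by 0.32 ± 0.081 (adjusted p = 0.0016; 0.112 on log2 TPM). In recovery cells CD68 (0.30 ± 0.031, adjusted p = 6.54e-07) and CD44 (0.31 ± 0.026, adjusted p = 1.92e-08) were still above vehicle. Their response to the later pulse was smaller than to the first, by -0.24 ± 0.042 for CD68 (adjusted p = 0.00553) and -0.21 ± 0.036 for CD44 (adjusted p = 0.00364), though neither interaction passed on log2 TPM. The level reached was not lower in repeat than in acute cells. Repeat minus acute was 0.06 ± 0.028 for CD68 (adjusted p = 0.276) and 0.09 ± 0.025 for CD44 (adjusted p = 0.0382, not called on log2 TPM). CD68, like SCARB2, is a lysosomal membrane protein. LIPA, the lysosomal acid lipase that frees cholesterol from lipoprotein, rose by 0.46 ± 0.025 (adjusted p = 6.22e-15). NPC1 (-0.03, adjusted p = 0.453) and NPC2 (0.08, adjusted p = 0.0502), also lysosomal, did not pass in acute cells. On log2 TPM NPC2 was called (limma adjusted p = 0.0288). Lysosomal genes were not tested as a set.

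The lipoprotein receptor family to which LRP1 belongs, with its adaptors, mostly fell. All 17 listed genes passed the filter, and 11 fell and 3 rose in acute cells (21.5% and 22.3% of all genes), with a median log2 fold change of -0.14. From recovery to repeat 9 fell and 3 rose (20.5% and 21.1% of all genes). On log2 TPM the acute counts were 5 lower and 2 higher, and LRP4 and LRP8, called lower on counts, turned to 0.05 and 0.06 without passing. From recovery to repeat the log2 TPM counts were 4 lower and 1 higher, and VLDLR and LRP5, called lower on counts, turned to 0.06 and 0.14 without passing. SORL1, a sorting receptor, went from 7.81 to 3.84 CPM (-1.02 ± 0.104, adjusted p = 5.4e-09), and MYLIP, a ubiquitin ligase, from 12.0 to 6.83 (-0.82 ± 0.078, adjusted p = 8.13e-10). The 3 that rose were LRP10, LRPAP1, which chaperones LRP1, and GULP1, an adaptor that binds LRP1 during engulfment, named after their values were seen. GULP1 lost its call on log2 TPM (0.11, limma adjusted p = 0.208) and with the length offset (0.09, adjusted p = 0.314). LRPAP1 rose by 0.32 ± 0.026 while LRP1 did not pass. In recovery cells 4 of the 17 were lower than in vehicle cells (2.91% of all genes), among them the adaptor DAB2 by -0.19 ± 0.025 (adjusted p = 8.2e-06) and LRP8 by -0.11 ± 0.030 (adjusted p = 0.0196). On log2 TPM all 4 calls were lost, that of DAB2 at a limma adjusted p of 0.215 and that of LRP8 at 0.945, where its sign turned.

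Among 21 partners in lipid handling, 18 passed the filter, of which 7 rose and 4 fell in acute cells, against 22.3% and 21.5% of all genes, so the share that fell was near that of all genes. ABCA1, which exports cholesterol, went from 7.14 ± 1.30 to 2.60 ± 0.124 CPM (-1.47 ± 0.132, adjusted p = 9.45e-10) and stayed lower in recovery cells (-0.61 ± 0.122, adjusted p = 0.00208; 0.369 with the gene length offset). ANGPTL4, a secreted lipase inhibitor, rose from 0.509 to 2.11 CPM (2.03 ± 0.201). CPT1A, which admits fatty acids to mitochondria, differed by 0.50 ± 0.083 (adjusted p = 1.22e-05) but missed the test on log2 TPM (0.20, limma adjusted p = 0.671). In recovery cells 2 were higher and 3 lower than in vehicle cells (3.03% and 2.91% of all genes). On log2 TPM limma called 0 in either direction, where edgeR on counts had 3 higher and 4 lower at an unadjusted p under 0.05 and DESeq2 called 2 and 3. ANGPTL4 passed there narrowly (0.71 ± 0.217, adjusted p = 0.0471; 0.139 with DESeq2) and turned to -0.04 on log2 TPM, and CPT1A (0.45 ± 0.083) turned to -0.11. LIPA was lower by -0.13 ± 0.026 (adjusted p = 0.0016; 0.0556 on log2 TPM).

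**Figure D3:**
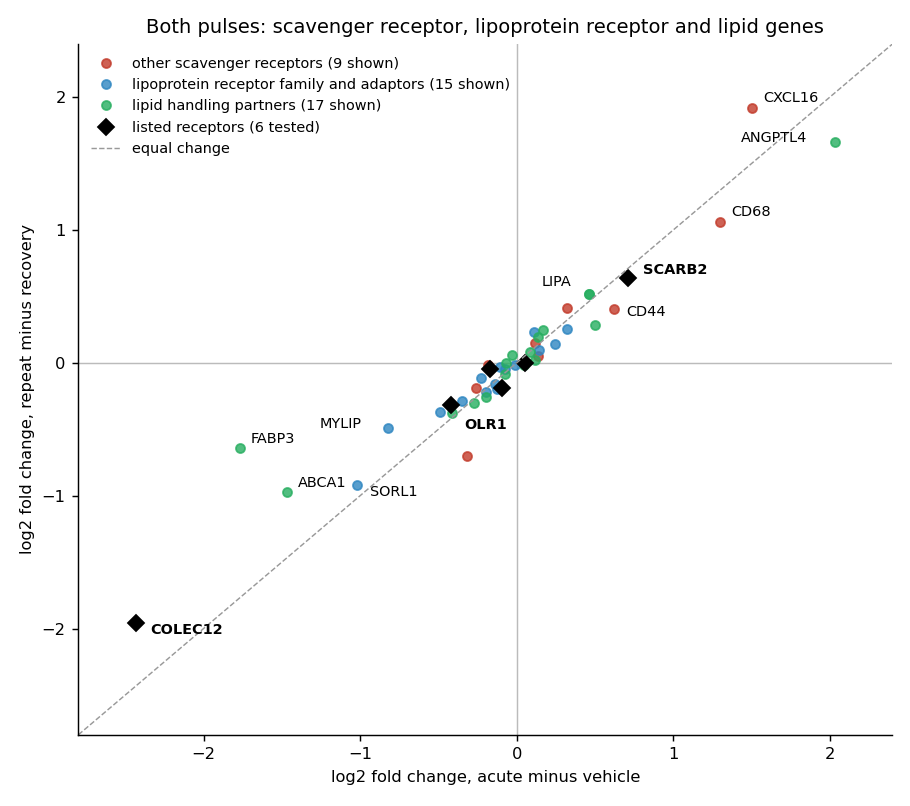
Log2 fold change in the later pulse (repeat minus recovery) against that in the first (acute minus vehicle), 1 point per gene shown of the scavenger receptor, lipoprotein receptor and lipid handling lists, with the 6 tested receptors as black diamonds; the dashed line marks equal change. COLEC12 lies at -2.43 and -1.96, SCARB2 at 0.71 and 0.64, and CD68 at 1.30 and 1.06.

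Soluble relatives of COLEC12 were close to absent. Of 14 collectin, ficolin and complement genes 5 passed the filter (MASP1, CFP, CFB, CFD and C3). MBL2, SFTPD, SFTPA1, FCN2 and FCN3 were at 0 in every library. CFB, a complement protease, rose from 7.89 ± 0.708 to 23.9 ± 0.895 CPM in acute cells (1.60 ± 0.062, adjusted p = 2.26e-18), and MASP1 fell by 0.94 on the log2 scale (adjusted p = 0.000381; 0.139 with the gene length offset). Of 9 C-type lectin genes in the region of OLR1 only CLEC2B and CLEC2D passed the filter. CLEC2D, a ligand of a natural killer cell receptor, was at 2.95 CPM in vehicle and 2.02 in acute cells (-0.56 ± 0.143, adjusted p = 0.0021; 0.158 on log2 TPM).

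The genes beside COLEC12 on chromosome 18 changed far less. USP14, THOC1 and TYMS, the 3 of its 6 nearest protein-coding genes that passed the filter, had log2 fold changes of 0.08 ± 0.022 (adjusted p = 0.00573), -0.08 ± 0.034 (adjusted p = 0.0791) and -0.12 ± 0.024 (adjusted p = 0.000213) for acute minus vehicle. USP14 lost its call under upper quartile scaling (0.0824) and THOC1 gained one (0.018). CETN1, 79.7 kb from COLEC12, was at 0 in every library. Beside OLR1, GABARAPL1, an autophagy gene 40.3 kb away, was the only 1 of 6 neighbours to pass the filter. It was at 59.6 CPM in vehicle, 48.1 in acute, 53.5 in recovery and 48.2 in repeat cells (-0.31 ± 0.044 for acute minus vehicle, adjusted p = 9.53e-06; 0.101 on log2 TPM). Unlike OLR1 it was higher in recovery than in acute cells, by 0.15 ± 0.045 (adjusted p = 0.0114).

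The genes most like COLEC12 were sought by Pearson correlation of log2 CPM over the 12 libraries, among 10919 genes with a mean of at least 5 CPM. The 12 points fall into pulsed and unpulsed libraries, share their scaling, and are given without a p. BNIP3L, a mitophagy receptor, had the highest r of 0.996, followed among the genes reported here by SMIM14 (0.995), the iron-responsive aconitase ACO1 (0.994) and the phosphatase PTPN11 (0.994). They shared the layout but not the size. BNIP3L went from 180 CPM in vehicle to 101 in acute, 173 in recovery and 106 in repeat cells, and ACO1, with the deepest change of these 4, went from 142 to 52.0, 138 and 54.8 CPM. The lowest r values belonged to SELENOW (-0.995), LMF2 (-0.994) and the hexokinase HK2 (-0.994). HK2 went from 60.2 CPM in vehicle to 95.9, 60.9 and 91.8 CPM.

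For OLR1, among 10918 genes, r was highest for the amino acid transporter SLC1A4 (0.968), MAP3K7CL (0.965), NRXN3 (0.962), PALLD (0.958) and INPPL1 (0.954). SLC1A4 had means of 43.6, 37.7, 36.9 and 31.9 CPM in vehicle, acute, recovery and repeat cells. PALLD, an actin-bundling protein, had 224, 209, 201 and 194 CPM, but for acute minus vehicle its sign turned on log2 TPM (0.06, limma adjusted p = 0.464). The lowest r values were those of COL6A2 (-0.968), STMN3 (-0.964) and TMEM158 (-0.956). COL6A2, a collagen chain, had means of 813, 892, 924 and 955 CPM. OLR1 itself spanned a wider range in proportion than any of its 5 most similar genes, as the plot of likeness shows.

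**Figure D4:**
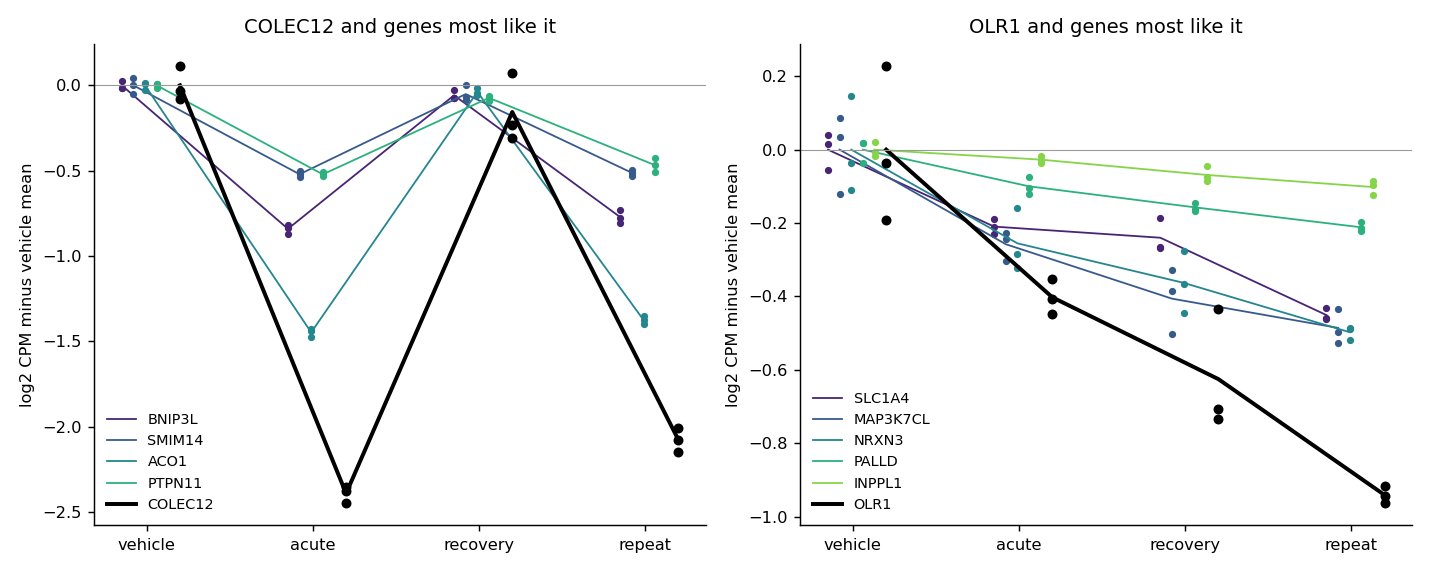
Log2 CPM minus the vehicle mean for COLEC12 (left) and OLR1 (right, black in both) and genes with the highest Pearson correlation to each (4 and 5 genes); points are single libraries and lines join the group means. COLEC12 and its 4 genes are low in acute and repeat cells, and OLR1 and its 5 genes have their lowest mean in repeat cells.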

How the data were processed

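RNA of 12 AC16 libraries (4 groups of 3) was sequenced. The authors deposited a table of estimated counts per gene and a table of TPM, both of 60649 genes, and 0 columns were without a sample. The build GRCh38.p13 and the tools STAR 2.7.11a, featureCounts 2.0.3, cutadapt 4.3, Trim Galore 0.6.10, edgeR and Picard 2.27.5 are named per the submitters' processing notes, without settings. Of nonzero deposited counts 25.49% were not whole, so counts were rounded. Gene lengths implied by both deposited tables varied by a median of 4.47% (coefficient of variation, 9689 genes with at least 500 counts), which can shift single genes between both scales.

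Symbols for 60463 identifiers and coordinates came from GENCODE release 44. Counts were fitted in R 4.3.3 with edgeR 4.0.16 (quasi-likelihood F test, robust, TMM, filterByExpr, 1 fit of all 12 libraries, 18119 genes, biological coefficient of variation 2.67%), two-sided, with calls at an adjusted p (Benjamini-Hochberg) under 0.05. P-values measure the spread between these libraries. Errors of fold changes are standard errors, and log CPM used a prior count of 2. Alternatives were DESeq2 1.42.0, its size factors in edgeR, upper quartile scaling, no filter, limma 3.58.1 on log2(TPM + 0.5) for genes with a mean TPM of at least 0.5 (which understates changes of low genes), a gene length offset, a replicate block and leaving out each library. On data simulated for acute minus vehicle (17802 genes) the test recovered 87.9% of changes of 1 and 99.0% of changes of 2 on the log2 scale and called 9 other genes. The simulation gave every gene the same small spread and changed only a small part of them. These rates therefore do not hold for genes that spread more, such as OLR1 (26.3 ± 3.94 CPM in vehicle, SD).

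Replicate numbers were checked for pairing by correlating deviations from the group means. The 3 acute and vehicle pairs had r of 0.453, 0.474 and 0.4, so there the numbers were taken to pair the libraries. The main fit left this pairing out, so its tests of acute minus vehicle are unpaired. Only the alternative fit with a replicate block used the numbers. In every other pairing of groups at least 1 pair was at 0.1 or lower.

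The members and gene lists were chosen with earlier results of these data known. Named are the 7 receptors, the interferon check genes, up to 4 called genes of each list with the largest change in acute or recovery minus vehicle and at least 1 CPM, the 5 most and 3 least correlated genes with COLEC12 and OLR1, and 3 neighbours on each side. LRP4, LRP5, VLDLR, MASP1, LRP10, LRPAP1, GULP1, NPC1, NPC2, STAT6 and TMEM52B were named outside this rule, after their values were seen. Some genes that the rule names are not reported here.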

Additional observations from a re-analysis of the deposited data

How the results depend on the processing

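Of 798 alternative fits of the 6 tested receptors, none reversed a called or chosen direction, and SCARA3 and SCARB2 kept every call. With log2 TPM the number of genes called fell from 7938 to 4210 for acute minus vehicle, 1076 to 127 for recovery minus vehicle, 8391 to 4469 for repeat minus vehicle, 7448 to 3789 for recovery minus acute, 761 to 12 for repeat minus acute, 7546 to 3715 for repeat minus recovery and 118 to 6 for the interaction. With the gene length offset the numbers were 4416, 178, 4775, 3915, 10, 3976 and 11. Without the filter the interaction had 333. The cause was not tested. With TPM 85 genes were higher and 42 lower in recovery than in vehicle, against 549 and 527 on counts. Leaving out 1 library gave 7020 to 8055, 624 to 1167, 7455 to 8403, 6619 to 7587, 337 to 1218, 6795 to 7525 and 56 to 323 genes, in the same order. Recovery minus vehicle was most reduced without vehicle replicate 1 (624). Repeat minus acute ran from 337 without acute replicate 3 to 1218 without repeat replicate 1.

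COLEC12 on log2 TPM had -1.195 for acute minus vehicle, -1.098 for repeat minus vehicle, 1.065 for recovery minus acute and -0.967 for repeat minus recovery, where the pseudocount is large beside its level. OLR1 acute minus vehicle was not called on log2 TPM (-0.285) or with the length offset (-0.344). OLR1 repeat minus recovery was called with upper quartile scaling (-0.345) and DESeq2 (-0.324), and ranged from -0.378 to -0.222 without 1 library. SCARB1 lost its call on log2 TPM and with the offset for acute minus vehicle (-0.144 and -0.169) and recovery minus vehicle (-0.228 and -0.229). LRP1 acute minus vehicle was called with upper quartile scaling (-0.124) and without the filter (-0.099), and ranged from -0.116 to -0.075 without 1 library, called without repeat replicate 1 or 2. LRP1 repeat minus acute lost its call on log2 TPM (-0.204) and with the offset (-0.190), and ranged from -0.199 to -0.108 without 1 library. LRP1 repeat minus recovery lost its call on log2 TPM (-0.146) and with the offset (-0.159).

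With the replicate block OLR1 repeat minus recovery was called (-0.320, adjusted p = 0.000501) and LRP1 repeat minus acute lost its call (-0.160, adjusted p = 0.0622), and no other call of a receptor changed. The block gave 7983 genes for acute minus vehicle and 855 for repeat minus acute. Over all pairings of groups, same-numbered libraries had r of -0.332 to 0.474, 10 of 18 were closest to their own number, and 7 were over 0.1. At 58 to 105 counts in pulsed libraries COLEC12 is limited by depth, and at 1 to 11 counts CD36 allows no comparison.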
